A study of Mus musculus with 6 samples.

Results

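The 10 genes described here are regulators of the hair matrix and enzymes or structural proteins of the hair follicle: Msx1, Msx2, Dlx2, Dlx3, Foxn1, Lef1, Gata3, Padi3, Crym and Prr9. They were taken by name, as the non-control probes whose accession belongs to one of these symbols, and 10 genes of 22835 genes and unnamed transcripts tested were found, each with 1 probe. They were measured on 1-colour Agilent arrays in skin of 6 untreated male mice described as in telogen, when follicles rest between growth phases. The 3 KO mice carried a conditional knockout of Sox4 in skin and were 17, 18 and 16 weeks old (replicates 1, 2 and 3). The 3 WT mice were wild type and were 20, 19 and 18 weeks old. All were of a mixed background of C57Bl6 and 129Sv. Sox4 encodes a SoxC transcription factor; the promoter that drives its deletion is not stated in the labels. The comparison asks what Sox4 contributes to skin in basal conditions.

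The hair matrix is the pool of dividing epithelial cells at the base of a growing follicle, which surrounds the dermal papilla and gives rise to the hair shaft and the inner root sheath. Wnt signals act there through Lef1, BMP signals act upstream of the homeobox genes Msx2 and Dlx3, and Foxn1 controls hair keratin genes. The matrix regresses after the growth phase and is rebuilt when a new growth phase (anagen) begins, so in telogen skin few cells with this programme are present.

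Values are log2 of the background-subtracted signal minus the 75th percentile of the same array, so 0 is the brightness of a probe at that percentile; the levels of different probes are not compared. The series as a whole gave few calls. In limma, with Benjamini-Hochberg adjustment over all genes at 0.05, 5 of 22835 genes and transcripts (0.0219%) differed between KO and WT. Sox4 itself read −2.95, −2.88 and −3.05 in KO and 0.41, 0.65 and 0.75 in WT (log2 fold change −3.56, limma adjusted p = 0.00135). Of 2 Sox4 probes on the array, only the brightest kept one is shown, and the labels do not say whether it covers the deleted sequence. Between 52.1% and 66.4% of probes were well above background, no spot was saturated, and the number of arrays limits the precision. The epidermal keratin genes Krt5, Krt14, Krt1 and Krt10 were well above background on all 6 arrays, which fits the tissue label skin. Each group holds 3 different ages, so its arrays were taken as separate animals, though the labels do not say so outright; p-values measure the spread between these arrays.

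None of the 10 genes passed the adjusted threshold, with limma adjusted p from 0.326 (Crym) to 0.980 (Msx1). At an unadjusted p under 0.05, 3 of 10 (Crym, Padi3 and Dlx2) were higher in KO, a rule met by 6.25% of all genes, and 0 of 10 were lower (5.46% of all genes). The values of the KO and WT arrays were apart for 2 of 10 (Padi3 and Crym), both higher in KO, against 7.58% of all genes; 0 of 10 lay lower without overlap, against 11.7%. The median log2 fold change over the 10 genes was 0.55, against −0.09 over all genes tested, and 9 of 10 were positive. Padi3 passed the filter on dim probes through KO, where it is high, so this median and these counts describe the genes and support nothing about them.

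KO replicate 3 stood apart from the other KO arrays for these genes, as the values of each array show. In 6 of 10 genes (Msx2, Dlx2, Lef1, Padi3, Crym and Prr9) KO replicates 1 and 2 were the highest of the 6 arrays, an order that 7.41% of all genes have. These arrays were singled out after their values were seen, so the count is a description with no test.

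**Figure D1:**
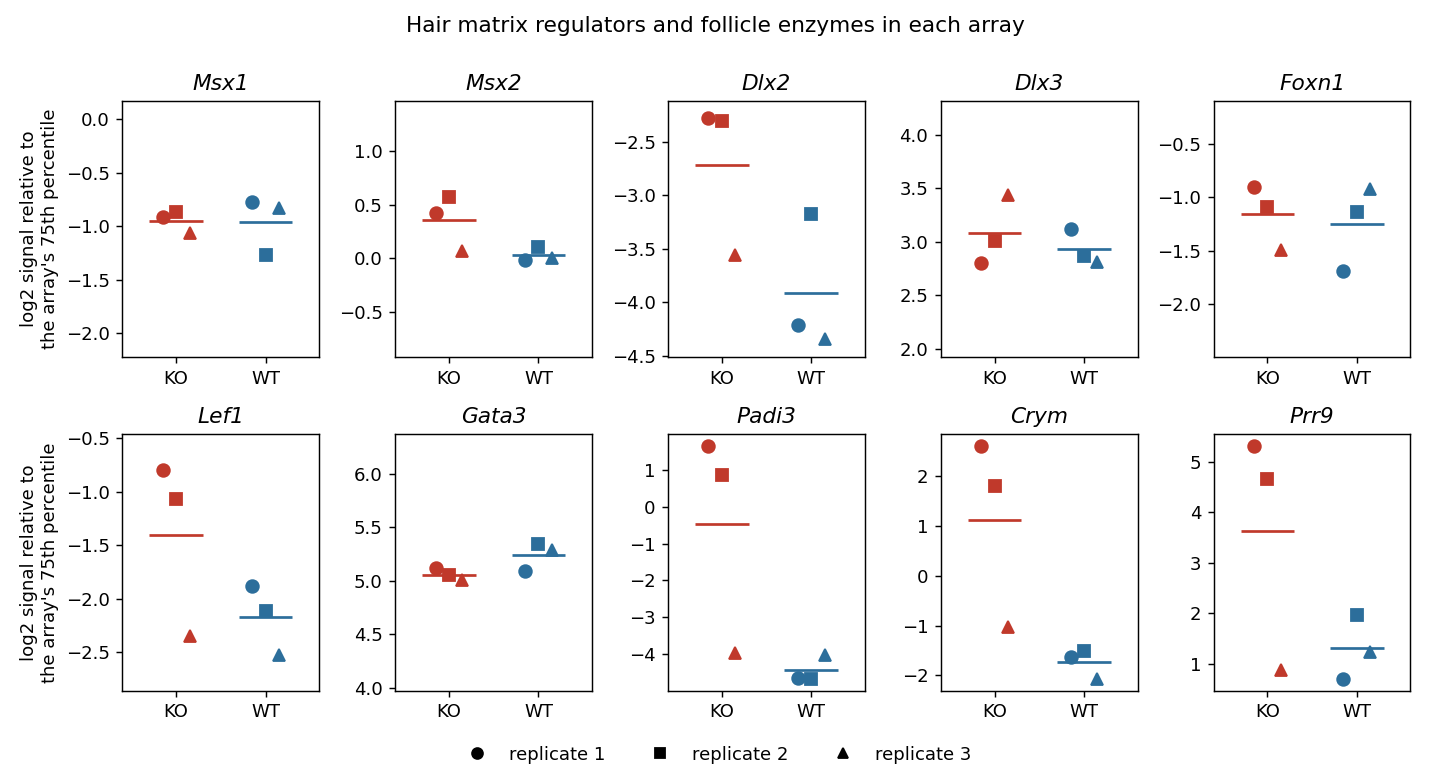
Each panel plots one gene, with log2 signal relative to the array's 75th percentile on the vertical axis, KO arrays on the left and WT arrays on the right; points are single arrays, symbols give the replicate number and lines the group means. Padi3, Crym and Prr9 are high in KO replicates 1 and 2, and KO replicate 3 lies near the WT arrays, while Msx1, Msx2, Dlx3, Foxn1 and Gata3 span at most 0.79 log2 over all arrays.

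Promoter sequences are shown for 6 genes, Padi3, Prr9, Lef1, Dlx2 and Msx2 because they were highest in the same KO arrays and have an entry in the table, and Foxn1 because it was not and yet shares a motif with Msx2. They are the 250 bases before the start of each gene, from RefSeq, build GRCm38.p6, written 5′ to 3′ on the strand of the gene. The windows are chr4:140810649-140810898 (minus strand) for Padi3, chr3:92123948-92124197 (minus strand) for Prr9, chr3:131110047-131110296 (plus strand, the outermost of 4 starts) for Lef1, chr2:71546755-71547004 (minus strand) for Dlx2, chr13:53472781-53473030 (minus strand) for Msx2 and chr11:78386609-78386858 (minus strand) for Foxn1. Capitals mark matches to the motifs named after the sequences.
Padi3: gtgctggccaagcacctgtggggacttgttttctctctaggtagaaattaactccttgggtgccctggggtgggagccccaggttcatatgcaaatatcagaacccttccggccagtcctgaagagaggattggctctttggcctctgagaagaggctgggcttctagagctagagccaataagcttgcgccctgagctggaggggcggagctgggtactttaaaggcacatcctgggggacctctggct
Prr9: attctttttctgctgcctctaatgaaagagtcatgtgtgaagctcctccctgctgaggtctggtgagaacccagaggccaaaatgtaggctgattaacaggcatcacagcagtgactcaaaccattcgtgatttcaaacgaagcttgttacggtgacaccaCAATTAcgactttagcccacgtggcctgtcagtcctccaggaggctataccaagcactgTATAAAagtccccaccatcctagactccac
Lef1: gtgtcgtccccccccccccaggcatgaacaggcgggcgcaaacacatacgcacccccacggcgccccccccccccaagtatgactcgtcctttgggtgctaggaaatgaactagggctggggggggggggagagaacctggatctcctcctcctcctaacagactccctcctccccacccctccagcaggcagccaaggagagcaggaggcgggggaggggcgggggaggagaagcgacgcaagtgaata
Dlx2: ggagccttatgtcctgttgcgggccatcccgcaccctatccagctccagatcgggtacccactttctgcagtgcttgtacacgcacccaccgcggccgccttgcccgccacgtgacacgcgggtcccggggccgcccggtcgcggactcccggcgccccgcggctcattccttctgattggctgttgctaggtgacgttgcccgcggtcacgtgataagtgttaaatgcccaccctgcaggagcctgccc
Msx2: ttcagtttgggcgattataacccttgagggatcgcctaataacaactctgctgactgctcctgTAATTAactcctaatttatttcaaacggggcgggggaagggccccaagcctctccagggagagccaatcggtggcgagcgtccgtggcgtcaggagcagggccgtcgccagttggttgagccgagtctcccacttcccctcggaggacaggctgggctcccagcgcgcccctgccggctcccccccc
Foxn1: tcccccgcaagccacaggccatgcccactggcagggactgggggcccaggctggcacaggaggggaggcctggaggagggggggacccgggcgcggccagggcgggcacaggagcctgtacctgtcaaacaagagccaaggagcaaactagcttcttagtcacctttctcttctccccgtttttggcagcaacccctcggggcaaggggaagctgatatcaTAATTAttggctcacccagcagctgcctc

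Both strands of the window were searched in the 8 members with an entry in the table, which are Msx1, Msx2, Dlx2, Foxn1, Lef1, Gata3, Padi3 and Prr9. The homeodomain letters TAATTG or TAATTA, the kind of site that Msx and Dlx proteins bind, were found in Msx2 (187 to 182 bases before the start), Foxn1 (29 to 24 bases before the start) and Prr9 (89 to 84 bases before the start, on the opposite strand). They occur in 11.3% of 32851 such windows. TATAAA, the TATA box, was found in Prr9 alone among the 8, from 30 to 25 bases before the start, and it occurs in 12.4% of windows. The TCF/LEF letters (CTTTGNN with A or T at each N), which 14.8% of windows hold, were in none of the 8. The SOX letters (NNCAANG with A or T at each N), held by 21.8%, were in none either; those ending in AAAG are the TCF/LEF letters read on the opposite strand. A match is not a measured site, and an absent match says only that these letters are not in this window.

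Among the homeobox genes, Dlx2 differed most between arrays and Msx1 least. Dlx2, a distal-less factor best known for forebrain and jaw development, read −2.28, −2.31 and −3.56 in KO and −4.21, −3.18 and −4.34 in WT. KO replicates 1 and 2 lay above every WT array, but KO replicate 3 lay below WT replicate 2, so the groups overlapped. Its processed signals were 125, 103 and 41.9 units in KO and 20.5, 53.9 and 21.5 units in WT. The probe was well above background on all 6 arrays, but the fold change rests in part on these low signals. The log2 fold change was 1.20 (SE 0.45, 95% interval 0.11 to 2.28, n = 3 per group; limma adjusted p = 0.396), and with normexp background correction and quantile normalization 0.52 (limma adjusted p = 0.409).

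Msx2, a repressor downstream of BMP signals that the mouse needs to hold its hair shafts, read 0.42, 0.57 and 0.07 in KO and −0.02, 0.11 and 0.01 in WT. These WT arrays lay close together, with an SD of 0.07, and KO replicate 3 fell within their range. Its log2 fold change was 0.32 (SE 0.16; limma adjusted p = 0.471), or 1.25-fold.

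Msx1, the close relative of Msx2, read −0.92, −0.87 and −1.07 in KO and −0.78, −1.27 and −0.83 in WT. All 3 KO values lay inside the WT range, and the log2 fold change was 0.01 (95% interval −0.38 to 0.41; limma adjusted p = 0.980). Dlx3, which the mouse needs for hair shaft and inner root sheath formation and which is also made in upper epidermis, read 2.80, 3.01 and 3.44 in KO and 3.12, 2.86 and 2.81 in WT. Its order differed from that of Dlx2, with KO replicate 3 highest and KO replicate 1 lowest of the 6 arrays. Its log2 fold change was 0.15 (95% interval −0.31 to 0.61; limma adjusted p = 0.729).

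Lef1, the nuclear partner of beta-catenin that passes Wnt signals to hair keratin genes, read −0.79, −1.07 and −2.34 in KO and −1.88, −2.11 and −2.53 in WT. KO replicates 1 and 2 were 2.60-fold and 2.16-fold above the WT mean, and KO replicate 3 lay between WT replicates 2 and 3. The log2 fold change was 0.77 (SE 0.42, 95% interval −0.23 to 1.77; limma adjusted p = 0.502).

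Foxn1, the gene mutated in nude mice, read −0.90, −1.09 and −1.49 in KO and −1.69, −1.14 and −0.92 in WT. Both groups overlapped along nearly their whole range, and the log2 fold change was 0.09 (95% interval −0.50 to 0.68; limma adjusted p = 0.876). Gata3, which specifies the inner root sheath in the mouse and acts in the epidermis and in T cells as well, read 5.12, 5.05 and 5.00 in KO and 5.09, 5.34 and 5.29 in WT. It was the only one of the 10 with a negative fold change (−0.18, 95% interval −0.47 to 0.10; limma adjusted p = 0.547). It had the narrowest range of the 10, 0.34 log2 over the 6 arrays.

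The enzymes and structural proteins had the widest ranges. Padi3 encodes a peptidylarginine deiminase, which turns arginine into citrulline in trichohyalin and S100A3. Its processed signals reached 1925, 927 and 31.6 units in KO, against 15.2, 19.0 and 27.0 units in WT. On the log2 scale these are 1.67, 0.87 and −3.96 in KO and −4.64, −4.68 and −4.02 in WT; its probe was well above background on all 3 KO arrays and on 1 of 3 WT arrays, WT replicate 3. KO replicate 3 lay only just above WT replicate 3. WT replicates 1 and 2 give no measured level for Padi3, so differences against the WT mean rest in part on background signal. The log2 fold change of 3.97 (SE 1.39, 95% interval 0.62 to 7.32; limma adjusted p = 0.371) is a mean over unlike arrays, since the single KO arrays lay 6.11, 5.31 and 0.48 log2 above the WT mean; with normexp background correction and quantile normalization it was 2.49 (limma adjusted p = 0.335).

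Crym encodes mu-crystallin, a ketimine reductase that also binds thyroid hormone. It read 2.61, 1.80 and −1.03 in KO and −1.62, −1.50 and −2.07 in WT. All KO arrays lay above all WT arrays, KO replicate 3 by the smallest distance, at 1.63-fold above the WT mean against 20.3-fold for KO replicate 1 and 11.5-fold for KO replicate 2. The log2 fold change was 2.86 (SE 0.88, 95% interval 0.74 to 4.98; limma adjusted p = 0.326). An exact two-sided permutation test gave p = 0.1 for Crym and for Padi3, the smallest that 3 against 3 arrays allow.

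Prr9, a small proline-rich protein encoded in the epidermal differentiation complex, read 5.33, 4.67 and 0.88 in KO and 0.69, 1.97 and 1.24 in WT. KO replicates 1 and 2 were 16.3-fold and 10.3-fold above the WT mean, whereas KO replicate 3 lay below WT replicates 2 and 3. For Prr9 the log2 fold change was 2.32 (SE 1.13, 95% interval −0.40 to 5.04; limma adjusted p = 0.474).

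**Figure D2:**
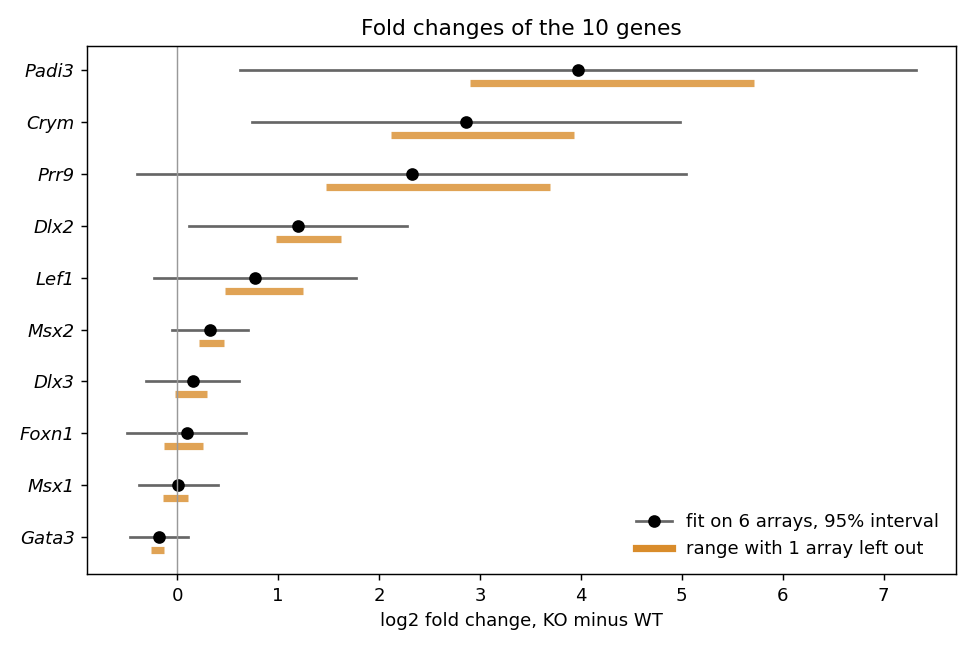
Points and thin lines give each gene's log2 fold change (KO minus WT) with its 95% interval from limma on 6 arrays, and thick bars give the range when 1 array at a time is left out. The interval of Padi3 runs from 0.62 to 7.32 and its range with 1 array left out from 2.90 to 5.71; Msx1, Foxn1 and Dlx3 have ranges on both sides of 0.

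Leaving out KO replicate 3 changed the calls. Padi3 then had a log2 fold change of 5.71 (limma adjusted p = 0.00331), Crym 3.93 (adjusted p = 0.0127) and Prr9 3.69 (adjusted p = 0.0454), and these 3 of 10 passed; 0.315% of all genes were called higher in the same fit. KO replicate 3 was singled out after its values were seen and Padi3 was tested through its KO level, so nothing is read from that count against the share of all genes. With KO replicate 3 as the only KO array, the log2 fold changes were 0.48 for Padi3, 0.70 for Crym, 0.35 for Dlx2, 0.04 for Msx2, −0.17 for Lef1 and −0.42 for Prr9, with limma adjusted p from 0.993 (Padi3) to 0.996 (Msx2). That fit assumes the lone array varies like the WT arrays.

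The arrays came from 3 slides, each scanned in 1 run. Slide 1 held KO replicate 3 and WT replicate 1, slide 2 held KO replicate 1 and WT replicates 2 and 3, and slide 3 held KO replicate 2 alone. Within slide 2, KO lay above WT by 6.02 log2 for Padi3 (WT replicate 2 was not well above background), 4.40 for Crym, 3.72 for Prr9, 1.53 for Lef1 and 1.48 for Dlx2. Within slide 1 the differences were 0.68 for Padi3 (WT replicate 1 was not well above background), 0.59 for Crym, 0.18 for Prr9, −0.46 for Lef1 and 0.65 for Dlx2. The high KO arrays were thus on slides 2 and 3 and the low one on slide 1. WT replicate 1, on slide 1, lay between WT replicates 2 and 3, on slide 2, for Padi3, Crym and Dlx2, below both for Prr9 and above both for Lef1. Slide 3 gives no value of its own. With slide as a block the fold changes were 3.73 for Padi3, 2.77 for Crym and 2.20 for Prr9, with limma adjusted p of 0.561, 0.558 and 0.606. With age as covariate they were 6.07 for Padi3, 4.50 for Crym, 3.95 for Prr9, 1.89 for Dlx2, 1.73 for Lef1 and 0.56 for Msx2. In that fit limma adjusted p ran from 0.212 (Crym) to 0.367 (Prr9). The KO mice were 16 to 18 weeks old and the WT mice 18 to 20, so age and genotype can hardly be told apart. KO replicate 3 was also the youngest mouse, at 16 weeks; the part of age or slide in the differences among KO arrays cannot be told apart from that of the animal.

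**Figure D3:**
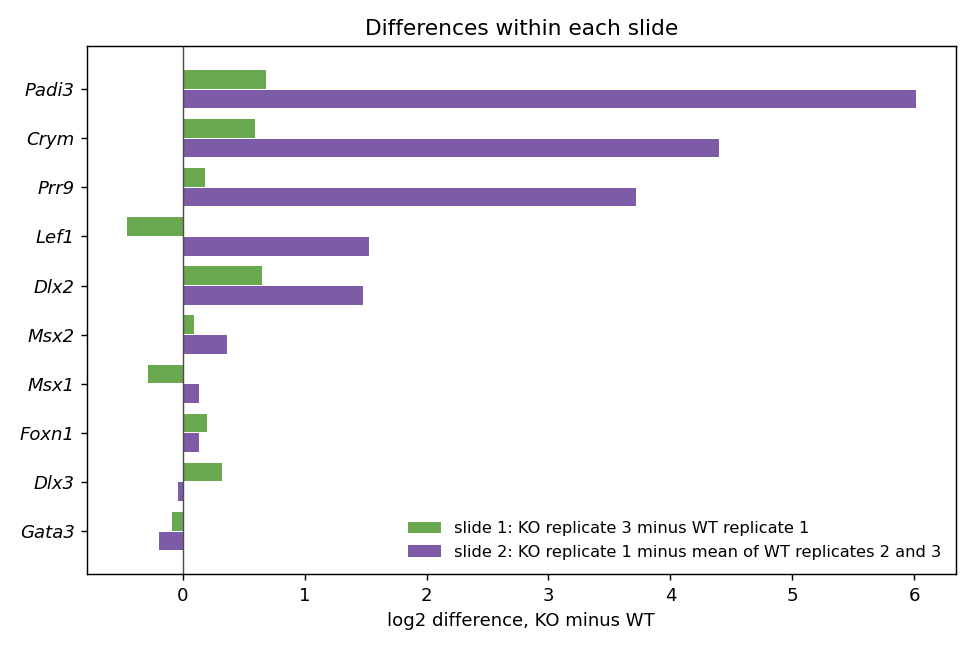
Bars give the log2 difference KO minus WT for each gene within slide 1 (KO replicate 3 minus WT replicate 1) and within slide 2 (KO replicate 1 minus the mean of WT replicates 2 and 3). On slide 2 the bars of Padi3, Crym and Prr9 reach 6.02, 4.40 and 3.72, and on slide 1 they reach 0.68, 0.59 and 0.18; for Padi3, WT replicates 1 and 2 were not well above background.

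The structural genes of the hair shaft and inner root sheath, which lie downstream of these regulators in the follicle, had the same order of arrays in all hair keratins tested and in most inner root sheath genes. Of 15 hair cortex and cuticle keratins listed, 7 were tested, and 0 of the 7 were called by limma in either direction. An unadjusted p under 0.05 was found for 4, all higher in KO, against 6.25% of all genes. All 7 were highest in KO replicates 1 and 2, against 7.41% of all genes. That order was singled out after the values were seen. The list was chosen with earlier results of these data known, so these counts are a description with no test. The median log2 fold change of the 7 was 2.61. Relative to the WT mean, the list's median position was 4.09, 3.77 and −0.04 log2 in KO and −0.11, 0.35 and −0.14 in WT. Krt86 (4.34, SE 1.40), Krt84 (1.42, SE 0.52), Krt33a (4.43, SE 1.68) and Krt31 (2.61, SE 1.05) had the smallest unadjusted p.

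Of 14 listed genes of the inner root sheath and medulla, 11 were tested and 0 were called by limma. At an unadjusted p under 0.05, 3 were higher in KO, against 6.25% of all genes. Of the 11, 8 were highest in KO replicates 1 and 2, against 7.41% of all genes. That order was singled out after the values were seen, so the count is a description with no test. The other 3 were Krt72 (−0.18), Krt75 (0.14) and Tgm3 (−0.23, with KO replicates 1 and 2 the lowest arrays). The 8 include S100a3 and the enzyme Padi1, which is also listed with the relatives of the members. The count is thus not one of inner root sheath structural genes alone. Tchhl1 (log2 fold change 3.15, SE 1.13), Krt28 (2.36, SE 0.95) and Krt73 (2.02, SE 0.86) were among the 4 with the smallest unadjusted p. Padi1, the fourth and a relative of Padi3, read −0.09, −0.36 and −1.28 in KO and −1.01, −1.82 and −1.47 in WT (limma adjusted p = 0.422). The known substrates of PADI3, named for that reason and not by p, were Tchh (trichohyalin), with 5.89, 5.00 and −0.33 in KO and −0.15, 0.26 and −0.20 in WT, and S100a3, with 3.30, 3.25 and −0.84 in KO and −1.57, −0.58 and 0.02 in WT. Both were high in the same KO arrays as Padi3 (limma adjusted p = 0.438 for Tchh and 0.440 for S100a3). Krt71 had the largest fold change of the list (5.62, SE 2.44, limma adjusted p = 0.439). It read 7.22, 6.72 and −2.26 in KO and −2.39, −1.19 and −1.59 in WT. Telogen is the stage given for these mice, and the hair cycle stage of each skin was not tested.

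Most other regulators of the growing follicle did not follow that order. Of 26 listed, 23 were tested, and their median log2 fold change was −0.13. By limma 0 were called. At an unadjusted p under 0.05, 1 was higher and 1 lower, against 6.25% and 5.46% of all genes. Hoxc13 (0.48, SE 0.40) and Cux1 (0.18, SE 0.13) were the 2 highest in KO replicates 1 and 2, an order that 7.41% of all genes have. Shh, Edar and Dsg4 were not tested. The filter on dim probes can leave out a gene that is bright only in KO replicates 1 and 2. The list's median positions ran from −0.18 to −0.02 in KO and from −0.08 to 0.14 in WT. Smallest in unadjusted p were Satb1 (0.35, SE 0.14), a chromatin organiser, Prdm1 (−0.34, SE 0.14), a transcriptional repressor found in dermal papilla and sebaceous cells, and Edaradd (−0.40, SE 0.20), the adaptor of the ectodysplasin receptor. Of the hair matrix signals, 8 BMP response genes had a median of −0.11, with Grem1 (−0.76, SE 0.29) and Nog (−0.43, SE 0.24), both BMP antagonists, at the smallest p. For 11 Wnt response genes it was −0.12, with the Lef1 relative Tcf7 (−0.31, SE 0.18) and the Wnt inhibitor Nkd2 (−0.30, SE 0.25). None of these 19 genes was called by limma, and none was highest in KO replicates 1 and 2. At an unadjusted p under 0.05, 0 were higher and 1, Grem1, was lower (6.25% and 5.46% of all genes).

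Relatives of the members in the same gene families had fold changes of both signs. Of 20 listed, 14 were tested, 0 were called by limma and the median log2 fold change was −0.06. At an unadjusted p under 0.05, 1 was higher and 1 lower, against 6.25% and 5.46% of all genes. Gata5 (−0.53, SE 0.16; limma adjusted p = 0.325) and Gata6 (−0.46, SE 0.23; limma adjusted p = 0.488) had values below 0, as had Gata3, whereas Gata2 (0.14) and Gata1 (0.04) did not. Padi1 (0.86, SE 0.35) had the second smallest p, and Padi2 (1.31, SE 1.05) read −0.21, 4.05 and 0.46 in KO and 0.08, −0.15 and 0.44 in WT, with KO replicate 2 alone standing out. The Dlx relatives Dlx1, Dlx4 and Dlx6 were not well above background on all arrays of either group and were not tested.

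In whole skin, fewer cells of a type and less RNA per cell cannot be told apart, and several of the 10 genes are also made by cells outside the follicle. Lef1 and Gata3 are T cell genes as well. Of 16 T cell genes tested, 16 had negative fold changes, and 14 were lower in KO without overlap, against 11.7% of all genes. Among them 1, Cd3g (−1.32, limma adjusted p = 0.0476), was called. The list's median positions lay at −0.86, −0.85 and −0.75 across the KO arrays and at −0.16, −0.02 and 0.12 across the WT arrays. The T cell list was thus low in all 3 KO skins. Gata3 lay below WT replicates 2 and 3 in all KO arrays but overlapped with WT replicate 1, and Lef1 was highest in KO replicates 1 and 2; the part of T cells in their values was not tested.

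Crym is also a muscle gene. Of 23 skeletal muscle genes tested, 22 had positive fold changes, with a median of 1.80. By limma 0 were called, and 19 were higher at an unadjusted p under 0.05, against 6.25% of all genes. Ckmt2 (2.22, SE 0.51) and Atp2a1 (2.17, SE 0.53) had the smallest p. Median positions for muscle lay at 1.76, 2.06 and 1.52 across the KO arrays and at 1.19, −0.34 and −0.72 across the WT arrays. Muscle genes were therefore high in KO replicate 3 and WT replicate 1 too, where Crym read −1.03 and −1.62; the part of muscle in the Crym values was not tested.

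Cell cycle genes mark dividing cells of any kind in whole skin, those of the matrix among them. Across the KO arrays the list's median positions lay at 0.40, −0.06 and −0.09, and across the WT arrays at −0.26, 0.08 and 0.19. The groups overlapped. Top2a (0.37, SE 0.21) and Kif11 (0.43, SE 0.34) had the smallest p, and 0 of 17 were called by limma (0 at an unadjusted p under 0.05). The part of matrix cells in these values was not tested. Of 8 melanocyte genes tested, 0 were called and the median log2 fold change was 0.07. At an unadjusted p under 0.05, 2 were higher, against 6.25% of all genes. Highest in KO replicates 1 and 2 were 3 of the 8, an order that 7.41% of all genes have. These were Pmel and the pigment enzymes Tyrp1 (0.84, 1.04 and −0.61 in KO and −0.76, −0.95 and −1.63 in WT) and Dct (3.06, 3.26 and 2.05 in KO and 2.15, 1.85 and 1.39 in WT). Fold changes of the other 5 ran from −0.46 (Mlana) to 0.09 (Sox10), with Tyr at −0.11 and Mitf (−0.13) lower in KO without overlap. The median log2 fold changes were −0.17 for 12 bulge genes, −0.13 for 11 dermal papilla genes, −0.20 for 8 basal epidermis genes, −0.24 for 11 spinous and granular genes, −0.37 for 11 sebaceous gland genes and −0.17 for 8 fibroblast genes, with 0 called by limma in each. Over these 6 lists, unadjusted p was under 0.05 for 5 sebaceous gland genes, 1 bulge gene and 2 dermal papilla genes lower in KO. It was also under 0.05 for 1 dermal papilla gene higher in KO. Of all genes, 5.46% were lower and 6.25% higher by that rule.

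**Figure D4:**
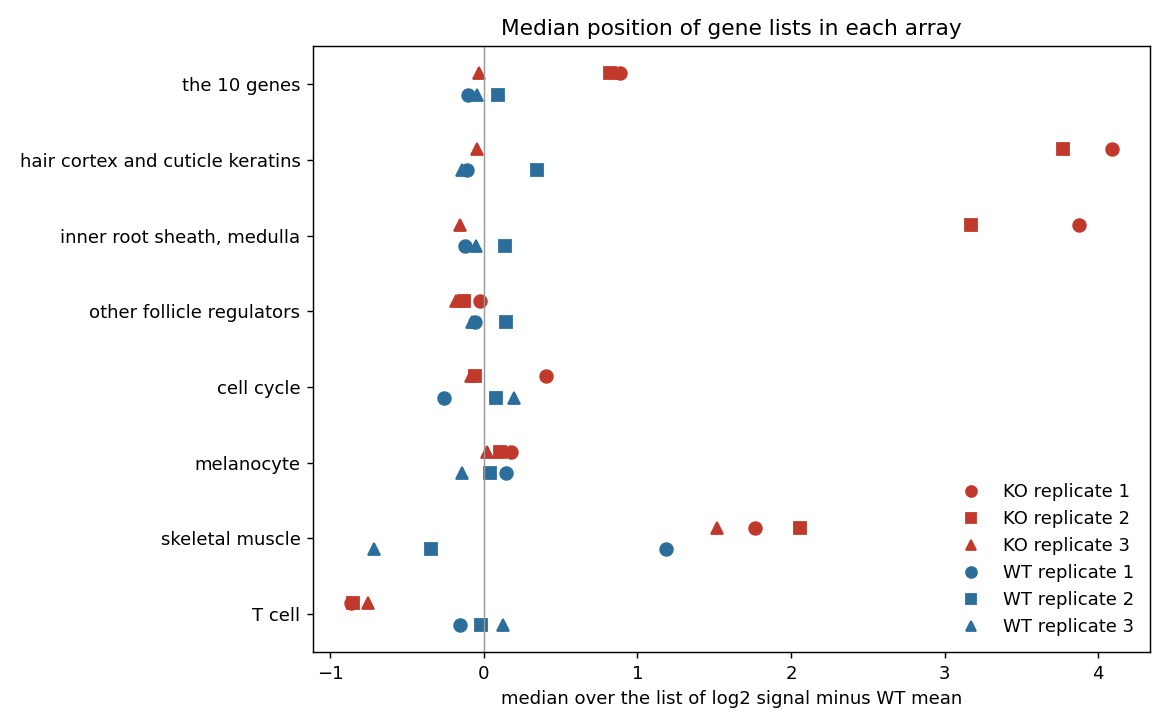
Each point is one array, with the median over a gene list of log2 signal minus the gene's WT mean on the horizontal axis; KO arrays are drawn above WT arrays and symbols give the replicate number. Medians of the 10 genes, the hair keratins and the inner root sheath list are high in KO replicates 1 and 2. They are near 0 in KO replicate 3. Of the 10 genes, 6 are highest in KO replicates 1 and 2. The T cell medians are low in all 3 KO arrays, and the muscle medians are high in KO and in WT replicate 1.

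The genes closest to each member in pattern were taken by Pearson correlation over the 6 arrays, among 2468 named genes that range over at least 1 log2. They were picked on the same arrays, so they share the member's order of arrays by construction. For Padi3 they were Dnah6, Krt86 and Krtap4-1 (r = 0.999, 0.997 and 0.997), and for Crym Krtap8-1, Krt86 and Krtap19-5 (r = 0.991, 0.989 and 0.988). For Prr9 they were Pinlyp, Ly6g6d and Crnn (r = 0.995, 0.992 and 0.990). The keratin-associated protein genes among these (Krtap symbols) encode the matrix proteins of the hair shaft. Dlx2 lay closest to Tchhl1, Treml1 and Krtap3-1 (r = 0.989, 0.972 and 0.972), Lef1 to Rflna, Krtap17-1 and Pmel (r = 0.986, 0.970 and 0.970), and Msx2 to Vsig8, Bean1 and Chac1 (r = 0.985, 0.973 and 0.972). Msx1 lay closest to Mfap5, C1s1 and Ccl11 (r = 0.981, 0.970 and 0.960), Foxn1 to Syne3, Steap4 and Kif11 (r = 0.981, 0.955 and 0.932), Gata3 to Npr3, Poln and Slc6a13 (r = 0.985, 0.975 and 0.964), and Dlx3 to Chia1, S100a5 and Glrb (r = 0.959, 0.955 and 0.948). With 6 arrays that fall into separate sets for most of these genes, r is a measure of likeness and no test.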

How the data were processed

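Skin RNA of 6 mice (3 KO, 3 WT) was measured. The authors deposited scanner files with spot intensity values from Agilent Feature Extraction (version 11.5.1.1), background-subtracted and detrended, per the file headers. Deposited flags of another kind, 0 or 1, mark spots well above background and outliers. The authors' value table holds log2 values; the submitters' processing notes name limma, without settings. Its columns (median 6.80) headed WT followed the KO scanner file of the same number and the reverse (correlations of 0.998 to 0.999, against −0.62 to −0.23 with the file named in the heading), so it served only as an alternative, each column taken by the array it follows.

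Outlier spots were dropped, the log2 signals of a probe's remaining spots were averaged, and the 75th percentile of the non-control probes was subtracted in each array. Accessions were matched without versions to RefSeq (GRCm38.p6), naming 27509 of 55681 probes; the array grid refers to mm9, so no coordinates were taken from the array. A probe was kept where every array of KO, or every array of WT, had it well above background, and the brightest kept probe stood for its gene. The test was limma's (3.58.1, R 4.3.3; lmFit, eBayes, no covariate, two-sided), tested on simulated data first. Named besides the members are the genes of each list with the smallest p and the 3 genes most correlated with each member. The design named the raw mean signal for the normexp alternative; the files hold the median signal, which was used. Members and lists were chosen with earlier results of these data known.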

Additional observations from a re-analysis of the deposited data

How the results depend on the processing

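The number of genes called, 5, moved with the processing: it was 15 with median scaling, 8 with normexp and quantile normalization (offset 50), 8 from the value table, 8 with a stricter filter, 2 with no filter, 139 with age as a covariate, 1 with slide as a block, 0 with a replicate block and 0 without KO replicates 1 and 2. With 1 array left out it ran from 2 to 302 (302 without WT replicate 1, 88 without KO replicate 3). The number of the 10 genes called, 0, ran from 0 to 3 with 1 array left out and was 0 elsewhere. Their median log2 fold change, 0.55, was 1.15 with age as a covariate, 0.85 without KO replicate 3, 0.32 with the stricter filter and −0.032 without KO replicates 1 and 2. Signs turned for Msx1 (−0.046 with slide as a block, −0.006 without KO replicate 1, −0.03 without KO replicate 2, −0.14 without WT replicate 2, −0.10 without KO replicates 1 and 2; −0.14 to 0.10 with 1 array left out) and for Foxn1 (−0.10 with age, −0.04 without KO replicate 1, −0.13 without WT replicate 1, −0.24 without KO replicates 1 and 2; −0.13 to 0.26 with 1 array left out). They also turned for Dlx3 (−0.027 without KO replicate 3; up to 0.29 with 1 array left out), and, without KO replicates 1 and 2, for Lef1 (−0.17) and Prr9 (−0.42). Dlx2, Msx2, Padi3, Crym and Gata3 kept their sign in all alternatives that tested them; the stricter filter left Padi3 out. Besides Msx1, Foxn1 and Dlx3, which lie near 0, sizes moved by over 1.5 times with normexp and from the value table for Dlx2 (1.20 against 0.52 in both), Padi3 (3.97 against 2.49 and 2.50) and Gata3 (−0.18 against −0.10 and −0.12), and with normexp for Lef1 (0.77 against 0.51). With age they did for Crym, Dlx2, Padi3, Prr9, Lef1 and Msx2, as given above. With 1 array left out, Lef1 ran from 0.47 without KO replicate 1 to 1.24 without KO replicate 3, Prr9 from 1.47 to 3.69 without the same arrays, and Msx2 was 0.22 without KO replicate 2. The cause of these changes was not tested. Samples with the same replicate number deviated together no more than others. Their correlations were −0.13, −0.04 and 0.08 for numbers 1, 2 and 3, against −0.08 to 0.13 for pairs with different numbers. With 3 arrays per group these values cannot exclude a pairing by number, and the main fit used none. The replicate block gave limma adjusted p = 0.453 for Crym and 0.504 for Padi3.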
